A study of Mus musculus with 6 samples.

Results

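The Mu class glutathione transferases of the mouse are encoded by 7 protein-coding genes, Gstm1 to Gstm7, and all 7 were present in a gene table of 54777 genes from liver RNA-seq. Members were chosen by symbol and biotype alone, and all 7 passed the filter on low values, set at 0.2 FPKM on average. FPKM are fragments per kilobase of gene length, scaled to library size, so levels could be compared between genes. The study compared livers of 3 Wtap-HKO mice, of genotype Wtapflox/flox Alb-Cre+/-, with livers of 3 Wtapflox/flox mice, so that both groups carried the floxed alleles. Wtap encodes a regulatory subunit of the complex that writes N6-methyladenosine on mRNA. The albumin promoter drives Cre to delete the floxed exon in hepatocytes, and deletion in other cells of the liver was not measured here. All mice were male, of C57BL/6 background, 8 weeks old and fed normal chow, and each library came from 1 mouse. The comparison asks how loss of Wtap in hepatocytes altered the liver mRNA of this enzyme family.

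Glutathione transferases join the thiol of glutathione to reactive electrophiles, which makes these compounds soluble and ready for export. The Mu class is a family of cytosolic enzymes that work as dimers, and its genes lie side by side in a cluster. In mouse liver several Gstm genes, Gstm3 among them, are known to be induced through NRF2, a transcription factor that responds to electrophiles and oxidants, and through the nuclear receptor CAR.

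The 6 libraries held between 15559250 and 18510477 reads, as rebuilt from the FPKM, which fall on whole multiples of 1 read. Across genes, libraries of one group correlated at Pearson r of 0.955 to 0.967 and libraries of different groups at 0.885 to 0.909, so each library was closest to its own group. The targeted gene gave no check of the labels. Wtap stood at 5.86, 6.45 and 5.77 FPKM in the libraries labelled Wtap-HKO and at 5.31, 5.94 and 5.56 FPKM in those labelled Wtapflox/flox, with overlapping groups (log2 fold change 0.10, SE 0.0969, limma adjusted p = 0.440). A gene total counts reads of every exon and of every cell type, so reads of the exons that are not floxed remain in it. Every direction given here therefore rests on the labels.

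The genes lie on GRCm38 chromosome 3 between 107895821 and 108044894, a stretch of 149.1 kb. Gstm5 is on the plus strand at the left end, and Gstm7, Gstm6, Gstm3, Gstm2, Gstm1 and Gstm4 follow in that order on the minus strand. Gaps between neighbours were between 7.03 kb, from Gstm7 to Gstm6, and 27.6 kb, from Gstm5 to Gstm7. Gstm3 and Gstm2 stand next to each other, 12.4 kb apart. Each gene has 8 exons in the annotated transcript used here (GENCODE M21).

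The coding sequences are so alike that it matters which reads a counter can place. Aligned starts are shown to let the members be told apart by eye. Each line holds 54 coding bases, from base 7 of the coding sequence (base 16 in Gstm5, whose start is longer), and capitals mark bases that differ from Gstm1.
Gstm1: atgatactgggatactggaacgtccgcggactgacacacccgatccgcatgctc
Gstm2: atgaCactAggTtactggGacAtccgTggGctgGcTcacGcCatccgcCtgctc
Gstm3: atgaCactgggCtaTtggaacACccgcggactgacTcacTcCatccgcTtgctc
Gstm4: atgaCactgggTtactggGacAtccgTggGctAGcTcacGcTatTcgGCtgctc
Gstm5: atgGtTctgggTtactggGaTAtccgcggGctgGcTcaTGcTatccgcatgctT
Gstm6: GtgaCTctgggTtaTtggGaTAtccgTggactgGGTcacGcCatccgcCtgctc
Gstm7: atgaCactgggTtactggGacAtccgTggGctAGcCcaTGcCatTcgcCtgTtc
Over these 54 bases Gstm3 differed from Gstm1 at 9 positions, Gstm2 at 12 and Gstm7 and Gstm6 at 15. Over the whole coding sequence Gstm1 and Gstm3 were 89.4% identical, the closest pair, and Gstm1 and Gstm2 85.9%. Gstm5 stood furthest from the rest, at 66.6% to 71.1%.

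Gstm1 and Gstm3 share an unbroken run of 112 identical bases, from coding base 389 in both. It is shown because a read that lies wholly inside it matches both genes equally well. Reads were paired, so a mate or a read that reaches beyond the run can still tell the genes apart. Gstm3 and Gstm6, which were called in opposite directions on the deposited scale, share a longer run, of 125 bases from coding base 169 in both, which is not printed here.
Gstm1 and Gstm3, shared run: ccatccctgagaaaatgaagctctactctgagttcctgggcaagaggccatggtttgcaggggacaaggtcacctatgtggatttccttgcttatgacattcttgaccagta
Of all 50-base windows of the transcripts, 23.1% of Gstm1, 28.8% of Gstm3, 9.36% of Gstm2, 11.5% of Gstm6 and 14.4% of Gstm5 also occur in another annotated gene, against 0 of 1658 windows of Gstm4 and 0 of 1328 of Gstm7. Gstm1 and Gstm3 shared 10.0% of the windows of Gstm1 with each other, and Gstm3 and Gstm6 shared 6.02% of the windows of Gstm3 and 6.73% of those of Gstm6. Most other shared windows of Gstm1 and Gstm3 lie in Gstm2-ps1 and Gm8834, which are processed pseudogenes. How the counting treated such reads is not given in the sources used here, so the values of Gstm1, Gstm3, Gstm2 and Gstm6 carry this uncertainty and those of Gstm4 and Gstm7 carry the least.

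Gstm3 and Gstm2 were higher in Wtap-HKO livers, by 7.83-fold and 2.99-fold. Gstm7 and Gstm6 were lower on the deposited scale, to 0.658 and 0.725 of the Wtapflox/flox level, but not on the TPM scale described below. Gstm1, Gstm4 and Gstm5 did not pass the test. Calls are genes whose adjusted p was below 0.05 in limma on log2(FPKM + 0.2), with Benjamini-Hochberg adjustment over 16547 genes. By this rule 19.5% of all genes tested were called higher and 20.7% lower, and the 2 of 7 members in each direction are close to these background shares. The median log2 fold change of all genes was 0.01. In bulk tissue fewer cells of a type and less RNA per cell cannot be told apart. With 3 libraries a group, an exact permutation test of 1 gene could not go below p = 0.10, and none was used.

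**Figure D1:**
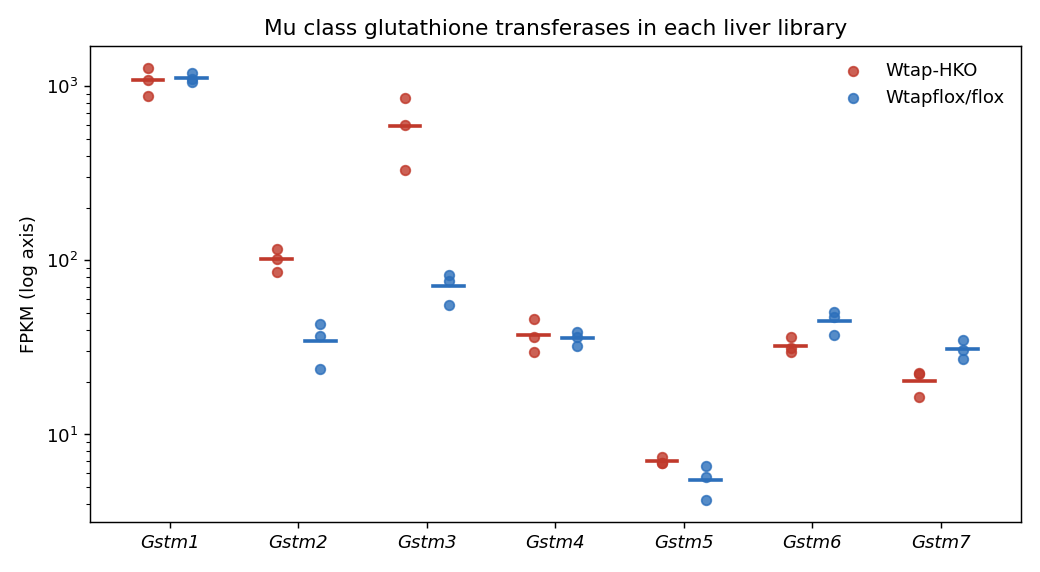
Level of each Gstm gene in each liver library, as FPKM on a log axis, with Wtap-HKO in red at the left of each pair and Wtapflox/flox in blue. Points are libraries and bars are group means (n = 3 each). Gstm3 stands at 328.3 to 860.4 FPKM in Wtap-HKO and at 55.1 to 82.6 FPKM in Wtapflox/flox, and Gstm1 overlaps.

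Gstm3 (ENSMUSG00000004038, chr3:107963696-107969283) showed the largest change of the family. It stood at 860.4, 596.0 and 328.3 FPKM in the Wtap-HKO livers, against 82.6, 76.4 and 55.1 FPKM in the Wtapflox/flox livers. The groups did not overlap, which held for 54.2% of all genes tested, and the lowest Wtap-HKO library was still far above the highest Wtapflox/flox one. The log2 fold change was 2.97 (SE 0.348, 95% interval 2.14 to 3.80, limma adjusted p = 0.00112). Of all genes tested, 0.653% had a larger log2 fold change. Gstm3 ranked 53rd by FPKM among all genes in Wtap-HKO and 722nd in Wtapflox/flox. Its Wtap-HKO libraries were also the most spread of any member, with a coefficient of variation of 44.7% against 20.2% in Wtapflox/flox. The log2 fold change was 2.65 when Wtap-HKO replicate 1 was left out and 3.34 when replicate 3 was, and each of the 16 alternatives called it higher.

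Gstm2 (ENSMUSG00000040562, chr3:107981702-107986453), the neighbour of Gstm3, moved the same way to a smaller extent. It stood at 101.3, 116.9 and 85.8 FPKM in Wtap-HKO livers, against 43.0, 36.6 and 23.8 FPKM in Wtapflox/flox livers, with no overlap. The log2 fold change was 1.58 (SE 0.228, 95% interval 1.04 to 2.12, limma adjusted p = 0.0024), and 4.98% of genes tested had a larger one. It was called higher in all 16 alternatives, with log2 fold changes of 1.34 to 2.17.

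The ratio of the 2 genes was not the same in both groups. Gstm3 over Gstm2 was 8.49, 5.10 and 3.83 in Wtap-HKO livers and 1.92, 2.09 and 2.31 in Wtapflox/flox livers. This ratio does not depend on how libraries were scaled, and it was not tested.

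Gstm1 (ENSMUSG00000058135, chr3:108012255-108017973), the main Mu class transferase of the liver, had 1084, 1281 and 875.3 FPKM in Wtap-HKO livers, against 1096, 1187 and 1060 FPKM in Wtapflox/flox livers. The Wtapflox/flox values lie within the Wtap-HKO range. The log2 fold change was -0.06 (SE 0.171, 95% interval -0.47 to 0.35, limma adjusted p = 0.802), an interval that runs from 0.724 to 1.27 times the Wtapflox/flox level. The sign turned to 0.08 without Wtap-HKO replicate 3 and to 0.53 on the TPM scale. Gstm1 ranked 30th among all genes in Wtap-HKO and 60th in Wtapflox/flox.

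Gstm4 (ENSMUSG00000027890, chr3:108040408-108044894) lies at the other side of Gstm1. It had 36.2, 45.8 and 29.7 FPKM in Wtap-HKO livers and 38.6, 36.4 and 32.2 FPKM in Wtapflox/flox livers, with overlapping groups. The log2 fold change was 0.04 (SE 0.165, 95% interval -0.35 to 0.43, limma adjusted p = 0.865), with a sign that turned to -0.12 without Wtap-HKO replicate 2 and to -0.03 without Wtapflox/flox replicate 3.

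Gstm5 (ENSMUSG00000004032, chr3:107895821-107898686), the most divergent member, which is known mainly from brain and testis, was the lowest of the family in both groups. It had 7.46, 6.89 and 6.87 FPKM in Wtap-HKO livers, against 5.66, 4.20 and 6.61 FPKM in Wtapflox/flox livers. The groups did not overlap, yet the closest libraries differed by little. The log2 fold change of 0.38 (SE 0.166, 95% interval -0.02 to 0.77) missed the threshold (limma adjusted p = 0.113) and passed it without Wtapflox/flox replicate 3 (0.52, adjusted p = 0.0447, with adjusted p of 0.00388 to 0.25 over the alternatives). Its start overlaps the antisense gene 4933431E20Rik, which shares all 129 of its non-unique windows. That gene had 1.61, 1.35 and 0.979 FPKM in Wtap-HKO livers, against 0.485, 0.508 and 0.487 FPKM in Wtapflox/flox livers (log2 fold change 1.10, limma adjusted p = 0.00634). Whether strand was used in counting is not given in the sources used here. Without it, reads inside the stretch where the 2 genes overlap cannot be told apart.

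Gstm7 and Gstm6, neighbours at the other side of Gstm3, were lower in Wtap-HKO. Gstm7 (ENSMUSG00000004035, chr3:107926334-107931817) had 22.1, 22.4 and 16.4 FPKM in Wtap-HKO livers, against 34.7, 30.6 and 27.1 FPKM in Wtapflox/flox livers (log2 fold change -0.60, SE 0.153, 95% interval -0.97 to -0.24, limma adjusted p = 0.0202). Gstm6 (ENSMUSG00000068762, chr3:107938847-107943749) had 29.6, 36.3 and 31.2 FPKM in Wtap-HKO livers, against 50.3, 47.2 and 37.3 FPKM in Wtapflox/flox livers (log2 fold change -0.46, SE 0.139, 95% interval -0.79 to -0.13, limma adjusted p = 0.0356). In both genes every Wtap-HKO library was below every Wtapflox/flox library, in Gstm6 by a narrow margin. Both calls were less firm than those of Gstm3 and Gstm2. Gstm7 lost its call when either Wtapflox/flox replicate 1 (adjusted p = 0.0666) or replicate 2 (0.0562) was left out, with adjusted p of 0.00778 to 0.906 over the alternatives. Gstm6 kept its call in 9 of 16 alternatives and in 2 of the 6 that left out 1 library, with adjusted p of 0.0143 to 0.399.

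Some of these directions depend on how libraries are scaled. The deposited FPKM carry a scaling between libraries, since the library size behind them was 1.17 to 1.24 times the rebuilt reads in Wtap-HKO and 0.834 to 0.846 times in Wtapflox/flox. Rescaled to equal sums of FPKM (the TPM scale), the median log2 fold change of all genes became 0.54, and 48.8% of 16743 genes were called higher. On that scale Gstm3 (3.56), Gstm2 (2.17), Gstm5 (0.95), Gstm4 (0.63) and Gstm1 (0.53) were called higher, and Gstm6 (0.12) and Gstm7 (-0.02) were not called. The TPM scale multiplies each library by a constant. Differences from the median of all genes therefore stay nearly the same by construction, and give no further support to a call. Gstm3 was 3.02 above that median on the TPM scale, Gstm2 1.63 above it, and Gstm1 differed from it by -0.01. Gstm6 stood at -0.41 and Gstm7 at -0.56 relative to it.

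**Figure D2:**
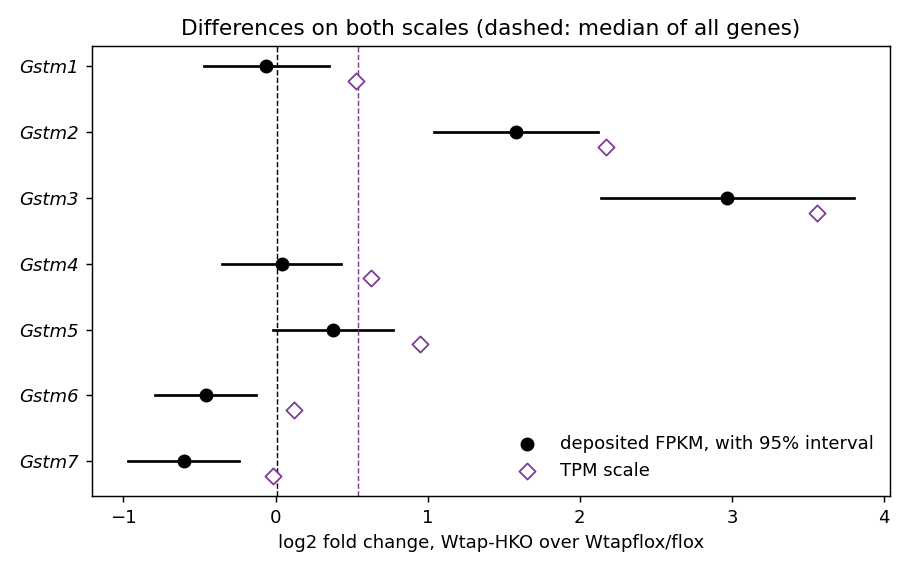
Log2 fold change of each Gstm gene, Wtap-HKO over Wtapflox/flox, on the x axis. Black points with bars are the deposited FPKM with the 95% interval, open diamonds the TPM scale, and dashed lines the median of all genes on each scale (0.01 in black, 0.54 in purple). Gstm2 and Gstm3 lie to the right of both lines, and Gstm6 and Gstm7 to the left of the line of their own scale.

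The make-up of the family does not depend on the scaling. Gstm3 made up 40.2%, 28.3% and 23.9% of the summed FPKM of the 7 genes in Wtap-HKO livers, against 6.12%, 5.39% and 4.43% in Wtapflox/flox livers. The share of Gstm1 was 50.6%, 60.9% and 63.7% in Wtap-HKO livers and 81.1%, 83.7% and 85.3% in Wtapflox/flox livers. Neither share overlapped between groups. Gstm2 took 4.73% to 6.24% in Wtap-HKO and 1.92% to 3.19% in Wtapflox/flox, and Gstm7 took 1.03% to 1.19% in Wtap-HKO and 2.16% to 2.57% in Wtapflox/flox. For each 100 FPKM of Gstm1 there were 79.4, 46.5 and 37.5 FPKM of Gstm3 in Wtap-HKO livers, against 7.54, 6.44 and 5.19 in Wtapflox/flox livers.

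**Figure D3:**
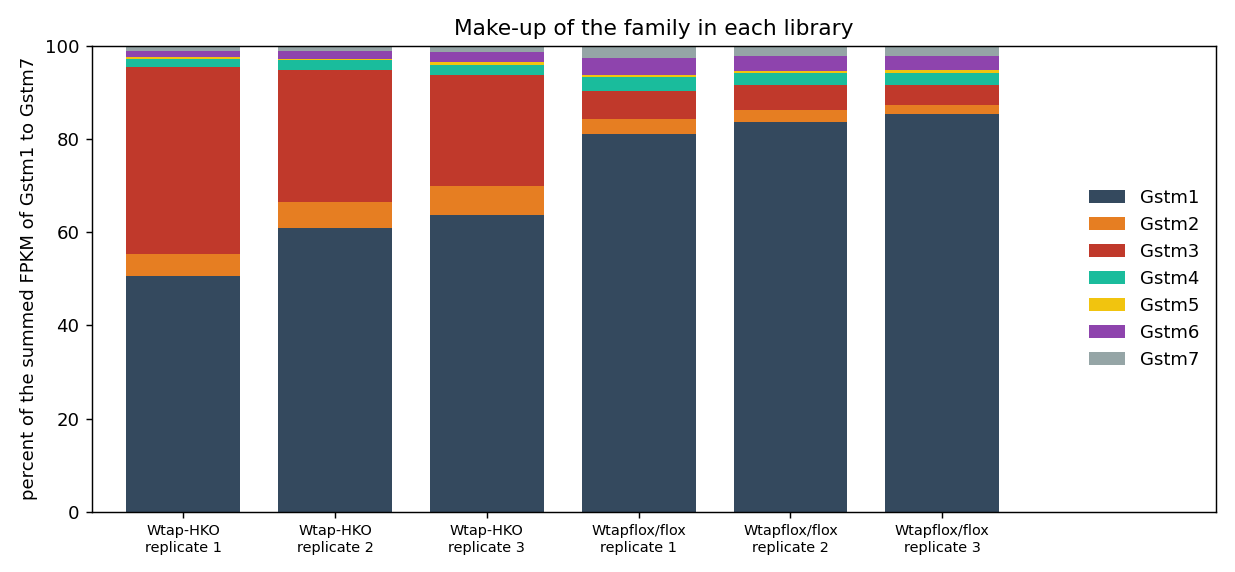
Share of each Gstm gene in the summed FPKM of the family, in percent, with 1 bar for each library and the Wtap-HKO libraries at the left. Gstm3, in red, takes 23.9% to 40.2% of the bar in Wtap-HKO and 4.43% to 6.12% in Wtapflox/flox, and Gstm1, in dark blue, takes the largest part of every bar.

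The family total was 2141, 2106 and 1373 FPKM in Wtap-HKO livers, against 1350, 1418 and 1243 FPKM in Wtapflox/flox livers, and the groups overlapped through Wtap-HKO replicate 3. Without Gstm3 the total averaged 1278 ± 232.2 FPKM in Wtap-HKO and 1266 ± 77.2 FPKM in Wtapflox/flox (SD, n = 3 each). As a share of all reads, which uses no scaling by the authors, the family took 0.378%, 0.357% and 0.246% in Wtap-HKO livers and 0.169%, 0.179% and 0.155% in Wtapflox/flox livers.

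The order of the members by mean level also differed between groups. In Wtap-HKO livers it was Gstm1, Gstm3, Gstm2, Gstm4, Gstm6, Gstm7 and Gstm5, and every library of each gene was above every library of the next except for Gstm4 and Gstm6, which overlapped. In Wtapflox/flox livers it was Gstm1, Gstm3, Gstm6, Gstm4, Gstm2, Gstm7 and Gstm5. There the 4 genes from Gstm6 to Gstm7 overlapped from each to the next, with means of 44.9 ± 6.74, 35.7 ± 3.28, 34.5 ± 9.77 and 30.8 ± 3.81 FPKM (SD, n = 3 each).

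Among the Wtap-HKO livers, replicate 3 was the lowest for each member but Gstm6. Its log2 values were 0.75 below the group mean for Gstm3, 0.23 to 0.30 below it for Gstm1, Gstm2, Gstm4 and Gstm7, and 0.04 below it for Gstm5, where replicates 2 and 3 were close at 6.89 and 6.87 FPKM. Among the Wtapflox/flox livers, replicate 3 was the lowest for each member but Gstm5, by 0.49 for Gstm2 and 0.35 for Gstm3.

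The look-alike genes bear on Gstm3 and Gstm2. Gm8834, which shares 16.0% of the windows of Gstm3, had 36.7, 30.2 and 16.7 FPKM in Wtap-HKO livers, against 16.6, 9.89 and 16.0 FPKM in Wtapflox/flox livers, and was not called (limma adjusted p = 0.0583). Gstm2-ps1, which shares 17.3% of the windows of Gstm1 and 11.0% of those of Gstm3, had 49.5, 45.5 and 34.7 FPKM in Wtap-HKO livers, against 34.8, 36.7 and 27.7 FPKM in Wtapflox/flox livers, and was not called either (adjusted p = 0.112). Gm6665, which shares 3.84% of the windows of Gstm2, was called higher, with 37.1, 50.7 and 38.5 FPKM in Wtap-HKO livers, against 20.9, 14.0 and 11.5 FPKM in Wtapflox/flox livers (log2 fold change 1.47, adjusted p = 0.00329). Reads of these rows can be confused with those of the Gstm genes, and the part of this in the differences was not tested. Gstm1 itself shares 9.83% of the windows of Gstm3. Over the Wtap-HKO libraries Gstm3 held 49095 reads, Gstm1 99902, Gstm2-ps1 1781 and Gm8834 991.

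The genes around the cluster are given for comparison. Of 16 protein-coding genes within 300 kb of the outermost members, 12 were tested, 1 was called higher, 5 lower and 6 not called, with a median log2 fold change of -0.39. The shares over all genes tested were 19.5% higher and 20.7% lower. Csf1, a growth factor for macrophages, was the gene called higher, with 5.03, 5.34 and 3.69 FPKM in Wtap-HKO livers, against 1.66, 1.73 and 1.81 FPKM in Wtapflox/flox livers (log2 fold change 1.32, limma adjusted p = 0.00119). Amigo1, a membrane adhesion protein (-1.08, adjusted p = 0.0133), and Sort1, a sorting receptor (-0.84, adjusted p = 0.0188), were among those called lower, and none of the lower calls held on the TPM scale. The closest tested protein-coding gene on the Gstm4 side, Ampd2, an AMP deaminase, was not called (0.13, adjusted p = 0.499). Of 9 further rows inside the cluster, 1 passed the filter of 0.2 FPKM on average, the pseudogene Gm12494 (1.22, SE 0.52, adjusted p = 0.104), which was called higher on the TPM scale (1.56, adjusted p = 0.0381).

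**Figure D4:**
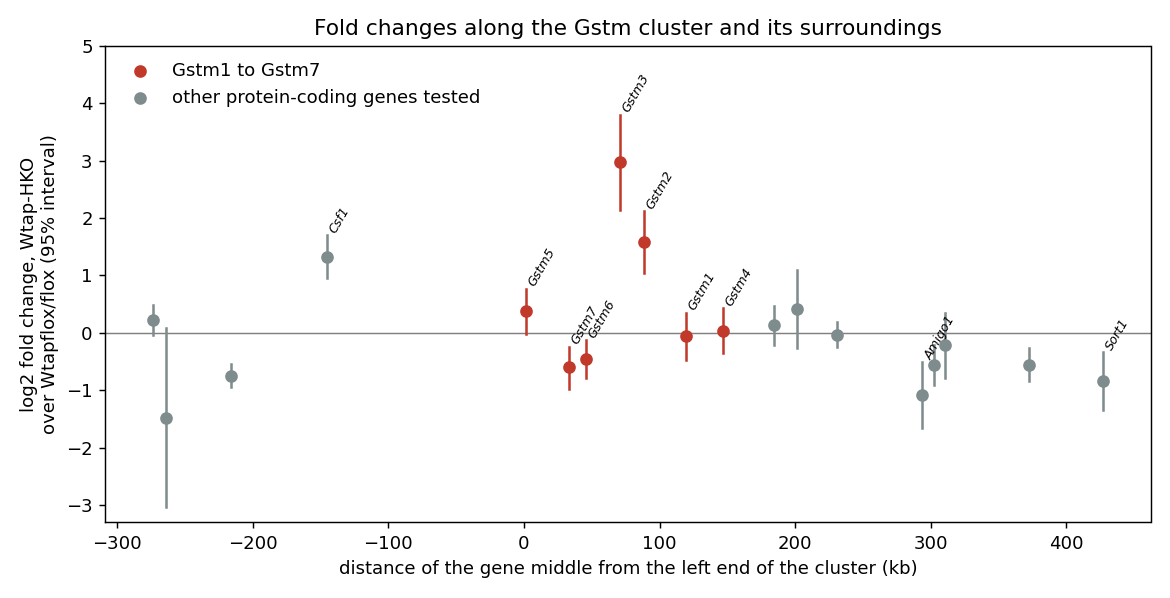
Log2 fold change (y axis, with 95% interval) of the tested protein-coding genes in and around the cluster, by distance of the gene middle from the left end of the cluster in kb. Gstm genes are red and others grey. Gstm3 (2.97) and Gstm2 (1.58) stand up side by side, between Gstm6 and Gstm7 at the left (-0.46 and -0.60) and Gstm1 and Gstm4 at the right (-0.06 and 0.04).

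Since Gstm3 and Gstm2 were both higher, the DNA before their starts is shown beside that of Gstm1, which was not called. The sequences are the parts outside the gene body of the 250 bases before a RefSeq start (GRCm38.p6), read on the minus strand, at chr3:107969284-107969424 for Gstm3, chr3:107986454-107986670 for Gstm2 and chr3:108017974-108018223 for Gstm1. Capitals mark a match to a searched motif.
Gstm3: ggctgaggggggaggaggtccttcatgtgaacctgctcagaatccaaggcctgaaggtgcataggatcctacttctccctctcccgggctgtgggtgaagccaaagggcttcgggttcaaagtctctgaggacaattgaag
Gstm2: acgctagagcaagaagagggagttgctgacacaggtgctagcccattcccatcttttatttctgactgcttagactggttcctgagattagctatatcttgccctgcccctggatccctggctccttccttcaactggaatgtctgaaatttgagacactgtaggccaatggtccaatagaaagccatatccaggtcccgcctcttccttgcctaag
Gstm1: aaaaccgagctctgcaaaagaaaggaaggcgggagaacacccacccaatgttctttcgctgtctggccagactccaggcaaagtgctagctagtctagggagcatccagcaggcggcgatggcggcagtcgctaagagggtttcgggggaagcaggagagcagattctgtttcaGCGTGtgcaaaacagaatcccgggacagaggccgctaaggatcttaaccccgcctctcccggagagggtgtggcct
Windows of 250 bases before to 50 bases after each start were searched on both strands for 3 motifs. These were TGACNNNGC, the core of the antioxidant response element bound by NRF2, GCGTG, the core bound by the aryl hydrocarbon receptor, and TATAAA. They occurred in 12.4%, 32.4% and 13.6% of 32851 promoter windows of the same length. TGACNNNGC can hold GCGTG on its other strand, and in Gstm5 it does. The windows of Gstm2, Gstm3, Gstm4 and Gstm6 held none of the 3. Gstm1 held GCGTG in both of its windows, which overlap, and the match is the same site in both. TATAAA lay 30 bases before the start in one of them. Gstm5 held all 3, and Gstm7 held TATAAA in one window and TGACNNNGC in the other. The windows are short, and a match or its lack is a description of these letters alone. Between members the windows were 41.1% to 57.8% identical. The highest value was between Gstm3 and the Gstm1 window with TATAAA, which is not the window of the printed Gstm1 sequence. The window of the printed Gstm1 sequence was 45.7% identical to that of Gstm3.

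The other glutathione transferases moved in both directions. Of 18 genes outside the Mu class, 16 were tested, 5 were higher and 6 lower, with a median log2 fold change of -0.15 (6 higher and 4 lower on the TPM scale). The shares over all genes tested were 19.5% higher and 20.7% lower. On the TPM scale they were 48.8% higher and 999 of 16743 genes lower. Gsta1, of the Alpha class, was higher, with 18.8 ± 13.5 FPKM in Wtap-HKO and 0.975 ± 0.455 FPKM in Wtapflox/flox (SD, n = 3 each; log2 fold change 3.89, limma adjusted p = 0.00175). Mgst3, a membrane-bound transferase, was higher by 1.88 on the log2 scale (adjusted p = 4.62e-04). Gstp1, of the Pi class, was lower, with 581.9, 446.3 and 401.7 FPKM in Wtap-HKO livers, against 2234, 1534 and 1157 FPKM in Wtapflox/flox livers (log2 fold change -1.75, adjusted p = 0.00293). Gsta3 (-1.58) and Gstt1 (-0.59) were lower too, Gstt1 with a log2 fold change of 0.00 on the TPM scale. In Wtap-HKO livers the mean level of Gstm3, 594.9 FPKM, was above that of Gstp1, 476.6 FPKM, whereas in Wtapflox/flox livers Gstm3 averaged 71.4 FPKM and Gstp1 1642 FPKM. Wtap-HKO replicate 3 did not follow that order, with Gstm3 at 328.3 FPKM and Gstp1 at 401.7 FPKM.

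Genes of glutathione synthesis, use, breakdown and recycling were called in both directions. The balance turned with the scale, as that of all genes did. The deposited scale had 19.5% of all genes tested called higher and 20.7% lower. On the TPM scale 48.8% of 16743 genes were called higher and 999 genes lower. Of 15 tested genes of this glutathione list, 2 were higher and 6 lower (median -0.14), against 9 higher and 1 lower on the TPM scale. Pgd, which makes NADPH in the pentose phosphate pathway, rose by 1.96 on the log2 scale (adjusted p = 3.65e-04) and Ggct, which breaks down gamma-glutamyl peptides, by 1.43 (adjusted p = 4.52e-04). Cbs, the first enzyme from homocysteine towards cysteine, fell by 1.27 (adjusted p = 7.82e-04). Gclc and Gclm, the subunits of the enzyme that limits glutathione synthesis, fell by 0.75 and 0.83 on the deposited scale and were not called on the TPM scale. Of 15 tested genes for export and mercapturic acid formation, 3 were higher and 6 lower (median -0.19), against 8 higher and 3 lower on the TPM scale. Abcc4, an efflux pump, was higher by 3.66 on the log2 scale (adjusted p = 2.16e-04), whereas Acy1, an aminoacylase (-1.37), and Abcc6, a membrane transporter (-1.05), were lower.

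The regulators known for the family did not move together. Nfe2l2, which encodes NRF2, had 34.3, 34.8 and 36.7 FPKM in Wtap-HKO livers, against 21.2, 22.6 and 26.2 FPKM in Wtapflox/flox livers (log2 fold change 0.60, limma adjusted p = 0.00412). It was the 1 gene called higher of 9 in the list of NRF2 and its partners, 5 of which were lower, among them the small Maf proteins Maff (-0.93) and Mafg (-0.72), whereas on the TPM scale 5 were higher and 0 lower. Of 16 tested NRF2 target genes other than transferases, 5 were higher and 6 lower (median 0.00), against 9 higher and 1 lower on the TPM scale. On that scale 48.8% of all genes tested were called higher, against 19.5% higher and 20.7% lower on the deposited scale. Cbr3, a carbonyl reductase, was higher by 3.47 on the log2 scale and Nqo1, a quinone reductase, by 1.22, whereas Me1, malic enzyme, fell by 0.98.

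Nr1i3, which encodes CAR, stood at 3.86, 2.88 and 3.33 FPKM in Wtap-HKO livers, against 20.7, 22.5 and 25.2 FPKM in Wtapflox/flox livers (log2 fold change -2.70, limma adjusted p = 1.11e-04). Nr1i2, which encodes the related receptor PXR, was lower by less (-0.64, adjusted p = 0.018) and not called on the TPM scale (-0.06). Of 12 xenobiotic and hepatocyte transcription factors 7 were lower and 0 higher (median -0.77), against 4 lower and 3 higher on the TPM scale. Ppara, a fatty acid receptor (-1.56), and Cebpa, a hepatocyte factor (-1.42), were lower on both scales. These are mRNA levels and do not measure the activity of a factor.

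**Figure D5:**
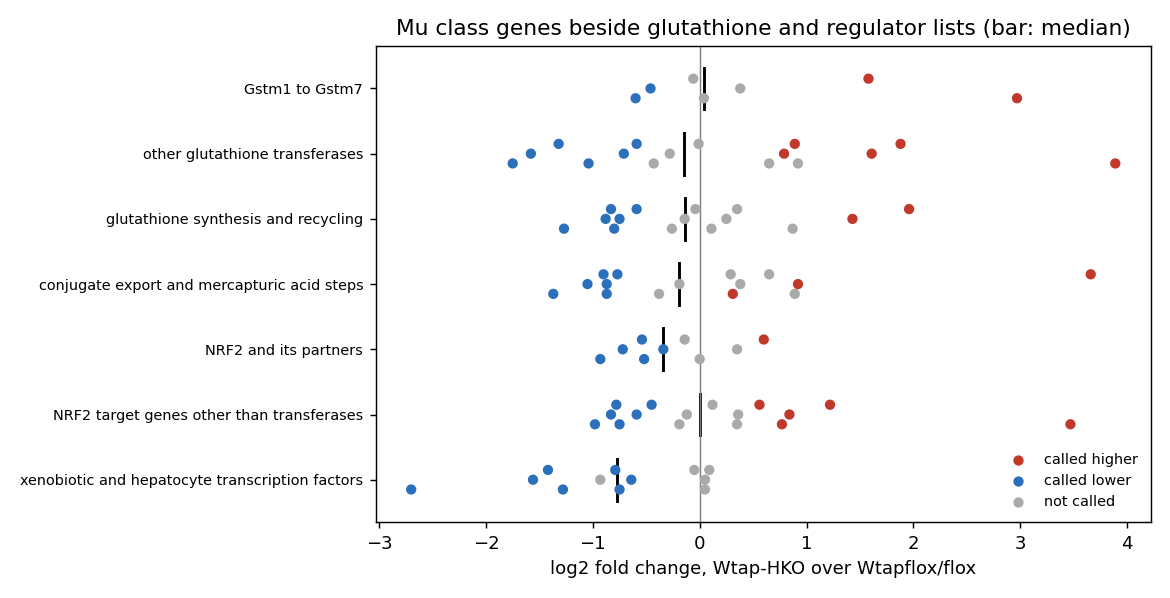
Log2 fold change, Wtap-HKO over Wtapflox/flox, of the Gstm genes and of the tested genes of 6 lists, on the deposited FPKM scale. Each point is a gene, red where called higher, blue where called lower and grey where not called, with points offset vertically to keep them apart, and bars are medians. The Gstm genes and each list but that of the transcription factors, whose median is -0.77, hold genes called in both directions.

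Over the 6 libraries, the protein-coding genes with a pattern most like each member were sought by Pearson r of log2(FPKM + 0.2) among 10314 genes of at least 1 FPKM. The 6 points fall into 2 groups and share the same scaling, and these values of r are a description. For Gstm3 they were Ripor1 (r = 0.999) and Fnbp1 (0.998), and for Gstm2 Slc39a4 (0.998) and Ttf2 (0.997). For Gstm7 they were Fem1a (0.999) and Tm2d1 (0.996), and for Gstm6 Slbp (0.999) and Ogfr (0.995). Gstm1 was closest to Pllp (0.978) and Hspbp1 (0.975), Gstm4 to Cs (0.978) and Eif1ad (0.976), and Gstm5 to Wdr48 (0.979) and Slc9a9 (0.977). Likeness was in shape and not in size, since Ripor1 differed by 0.39 and Fnbp1 by 0.46 on the log2 scale, against 2.97 for Gstm3.

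Marker genes of several of the liver's cell types differed between the groups. On the deposited scale most of those of sinusoidal endothelium and of T and NK cells were not called. Among all genes tested 19.5% were called higher and 20.7% lower on that scale. Hepatocyte markers were present in every library, and 9 of 10 were lower (3 of 10 on the TPM scale), with summed levels of 28204 to 32229 FPKM in Wtap-HKO and 60454 to 67722 FPKM in Wtapflox/flox. Glul fell by 2.27, Serpina1c by 1.98 and Ttr by 1.28 on the log2 scale. Of the markers of macrophages and Kupffer cells 8 of 10 were higher (summed 434.3 to 599.4 FPKM in Wtap-HKO, 250.6 to 282.9 FPKM in Wtapflox/flox), led by Ccr2 (2.34), Marco (2.24) and Cd68 (1.79). Of those of stellate cells and fibroblasts 7 of 10 were higher (71.9 to 175.9 FPKM in Wtap-HKO, 36.7 to 49.2 FPKM in Wtapflox/flox), led by Col1a1 (2.80), Col3a1 (2.50) and Acta2 (1.74). Tagln, of the same list, went the other way at a low mean of 0.292 FPKM and was not called (-0.71, limma adjusted p = 0.152). Cholangiocyte markers were higher in 5 of 7 tested (78.5 to 269.0 FPKM in Wtap-HKO, 40.6 to 64.9 FPKM in Wtapflox/flox), led by Muc1 (1.88), Cldn7 (1.79) and Epcam (1.57). Krt19 and Krt7 were not called. Most of the summed level was Spp1, with 240.9, 69.1 and 180.3 FPKM in Wtap-HKO livers, against 54.8, 36.4 and 57.7 FPKM in Wtapflox/flox livers. Neutrophil markers were higher in 5 of 5 (23.7 to 34.4 FPKM in Wtap-HKO, 5.16 to 11.5 FPKM in Wtapflox/flox), with S100a8 at 1.95 and S100a9 and Retnlg at 1.84. Sinusoidal endothelial markers were higher in 3 of 10 (72.7 to 83.4 FPKM in Wtap-HKO, 56.3 to 73.1 FPKM in Wtapflox/flox), namely Cdh5 (0.57), Fcgr2b (0.50) and Pecam1 (0.39), and those of T and NK cells in 1 of 7 (4.56 to 5.21 FPKM in Wtap-HKO, 2.70 to 3.66 FPKM in Wtapflox/flox). No marker was at 0 in all libraries. On the TPM scale the markers called higher were 10 of 10 for macrophages and Kupffer cells, 9 of 10 for stellate cells and fibroblasts, 6 of 7 for cholangiocytes, 5 of 5 for neutrophils, 10 of 10 for sinusoidal endothelium and 3 of 7 for T and NK cells. Of all genes tested, 48.8% were called higher on that scale. The part of these cells in the Gstm differences was not tested.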

How the data were processed

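RNA-seq was performed on livers of 3 Wtap-HKO and 3 Wtapflox/flox mice. Per the study's methods and the submitters' processing notes, paired-end reads were aligned to GRCm38.p6 with TopHat2 and counted per gene with HTSeq 0.6.1. The authors deposited FPKM per gene, and the sources used here do not state their scaling between libraries, annotation release, strand setting or treatment of reads that match several genes. The deposited FPKM times gene length were whole multiples of 1 read in every library (tolerance 0.01 reads), from which reads were rebuilt. Totals were 15559250 to 18510477 reads. No column held values of other samples, and 8 lines of the table were emptied before use.

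FPKM are not counts, so log2(FPKM + 0.2) was tested with limma 3.58.1 (R 4.3.3, eBayes with trend), for 16547 genes that averaged 0.2 FPKM or more, two-sided, with Benjamini-Hochberg adjustment. Fold changes are on the log2(FPKM + 0.2) scale, which understates changes of low genes. The test was checked on simulated data in which genes of at least 5 FPKM were changed, after a first check over all genes tested gave fold changes too small for low genes. The simulated data had the same assumed spread between mice for every gene. The check therefore bears on the size of fold changes and not on the calls in these data. The study's methods name no test for RNA-seq. Alternatives were pseudocounts of 1 and 0.05, other filters, the TPM scale, median-of-ratios scaling, no trend, a replicate block, protein-coding genes alone, voom on rebuilt reads and each library left out. Replicates are separate mice per the study's methods. Transcripts came from GENCODE M21 and promoters from RefSeq (GRCm38.p6). All 7 members had the same position in the table and in GENCODE M21.

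The members, the gene lists and the tests were chosen with earlier results of these data known. Named besides the members were, in each list and among neighbours, the up to 3 called genes that changed most and averaged 1 FPKM or more, the 2 genes most like each member, and Wtap, Nfe2l2, Nr1i2, Nr1i3, Gsta3, Gstp1 and Gstt1. Ampd2, Gclc, Gclm, Tagln, Spp1, Krt19, Krt7 and the look-alike and overlapping genes were named after their values were seen. The 3 motifs were chosen after the fold changes were seen.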

Additional observations from a re-analysis of the deposited data

How the results depend on the processing

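Gstm2 and Gstm3 were called higher under all 16 alternatives. Median-of-ratios scaling could hardly differ from the main fit, since its factor was 1.01 in every library. On the TPM scale 8167 genes were called higher and 999 lower, and the log2 fold changes became 0.53 for Gstm1 (adjusted p = 0.0235), 0.63 for Gstm4, 0.95 for Gstm5, 0.12 for Gstm6 (adjusted p = 0.399) and -0.021 for Gstm7 (adjusted p = 0.906), the shift of 0.54 in the median of all genes being part of that scale's construction. Gstm6 kept -0.46 but lost its call with no filter (adjusted p = 0.0568) and without the trend (adjusted p = 0.0630), and the cause was not tested. Leaving out each library in turn gave 2131 to 2926 genes called higher and 2515 to 3099 lower, the lowest counts without Wtap-HKO replicate 3. The log2 fold changes then ranged from -0.19 to 0.083 for Gstm1 (0.083 without Wtap-HKO replicate 3), 1.34 to 1.76 for Gstm2, 2.65 to 3.34 for Gstm3, -0.12 to 0.19 for Gstm4, 0.20 to 0.52 for Gstm5, -0.59 to -0.38 for Gstm6 and -0.69 to -0.46 for Gstm7. Gstm6 was not called without Wtap-HKO replicate 1 (adjusted p = 0.10), Wtap-HKO replicate 3 (0.102), Wtapflox/flox replicate 1 (0.109) or Wtapflox/flox replicate 2 (0.103).

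The replicate numbers are shared between groups but nothing in the labels pairs the mice. Deviations of same-numbered libraries from their group means correlated at 0.0146, 0.0433 and 0.0642, the highest value for each Wtap-HKO replicate. Differently numbered libraries correlated at -0.0626 to 0.0224, and Wtapflox/flox replicate 1 correlated best with Wtap-HKO replicate 2 (0.0224). With the replicate number as a block 3057 genes were called higher and 3508 lower, and no call of a member changed. The SE of every member was smaller with the block, for Gstm3 0.168 against 0.348 and for Gstm7 0.0861 against 0.153. Whether same-numbered libraries share an effect was not tested. The least counted member, Gstm5, had 76 to 200 reads in each library, and counting error was not separated from the spread between mice.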
